A study of Mus musculus with 4 samples.

Results

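Principal 15 is 1 of 4 groups of secretory principal cells that came almost wholly from the mouse vas deferens. It was taken from the cell type column of the deposited table by a fixed rule. Of the 4 cell types with at least 98% of their cells in the vas deferens library, those of 346 and 400 cells were set aside, and the larger of the other pair was kept. This gave 332 cells of the 8880 in the table, and all 332 belonged to the vas deferens library. The 3 populations set aside, called principal 12 (346 cells), principal 13 (400 cells) and principal 14 (139 cells) here, served as the comparison. The numbers are names used here to order the 15 principal populations.

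The study profiled single cells of the caput, corpus and cauda epididymidis and of the vas deferens with 10x droplet libraries, 1 library per region. Each library was a pool of 8 pieces from 4 male FVB/NJ mice of 10 to 12 weeks, untreated and without a transgene or deletion named in the labels, dissociated and depleted of sperm. Since each region is 1 pooled library, there is no replicate animal or library behind any value, and no test between groups was run. The populations were also defined by clustering the same counts that are compared here, so every difference between populations is a description, and the intervals cover counting error only.

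The vas deferens carries sperm from the cauda epididymidis to the urethra. Its principal cells line the lumen, resorb and secrete fluid, and release proteins under the control of androgens. Akr1b7, first known as a major protein of the mouse vas deferens, is an aldo-keto reductase that clears reactive aldehydes formed from lipids and from steroid side chains. Abcg2 is an efflux transporter of the ATP-binding cassette family in the apical membrane of many epithelia.

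Levels are given as UMIs per 1000000 (UPM): the UMIs of a gene summed over the cells of a population, divided by all UMIs of that population. A UMI is a tag that marks 1 captured RNA molecule. Principal 15 held 821784 UMIs, against 1730049 in principal 12, 1397510 in principal 13 and 474637 in principal 14. Its cells were the shallowest of the 4 populations, with a median of 933 UMIs and 438.5 genes per cell, against medians of 2344, 1540 and 1474 UMIs in principal 12, 13 and 14. A gene without a UMI in principal 15 may still be expressed, and for ratios it was set to 3.65 UPM, the level that 3 UMIs would give. The number of UMIs taken out by the authors' correction for free RNA was 3.46% of those of principal 15 and between 1.71% and 2.51% in the other 3. Of its 332 barcodes, 1 was also present in another library.

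Both markers of the label were abundant. Every one of the 332 cells of principal 15 held Akr1b7 UMIs (gene at chromosome 6, 34412334 to 34423142, plus strand, GRCm38), and the level was 96185 UPM (95% exact Poisson interval 95515 to 96858). Principal 14 followed with 70894 UPM, principal 13 with 49736 and principal 12 with 32958. The intervals of the 4 populations did not overlap. The ratio of principal 15 to principal 14 was 1.36 (95% interval 1.34 to 1.37), and that to principal 12 was 2.92 (2.89 to 2.95). In principal 11, a mixed population with 41.0% of its 244 cells in the vas deferens library, the level of Akr1b7 was 3780 UPM, and the highest level outside the principal cells was 732 UPM.

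The level of Abcg2 (chromosome 6, 58584523 to 58695676, plus strand) was 4915 UPM (4764 to 5069) in principal 15, 4222 in principal 13, 4155 in principal 14 and 2879 in principal 12. Principal 13 and principal 14 lay next to each other in this order, and principal 15 stood 1.16-fold above principal 13 (1.12 to 1.21). When each cell was given equal weight this gap was smaller, with 4727 UPM in principal 15 and 4515 in principal 13. Principal 11 had 1113 UPM of Abcg2, and principal 1, the highest of the 10 remaining principal populations, had 37.2 UPM.

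Among other cell types that the dissociation could carry over, smooth muscle genes made up 0.0498% of the UMIs of principal 15, against 0.228% in principal 14, 0.0848% in principal 13 and 0.0277% in principal 12, and all 8 genes of that list had UMIs. Stromal genes made up 0.00694% of its UMIs and basal cell genes 0.00900%, with Krt5, a keratin of basal cells, at 0 UMIs. Endothelial and immune lists had 7 UMIs each in all 332 cells. Sperm genes had 0 UMIs and red blood cell genes 1 UMI.

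**Figure D1:**
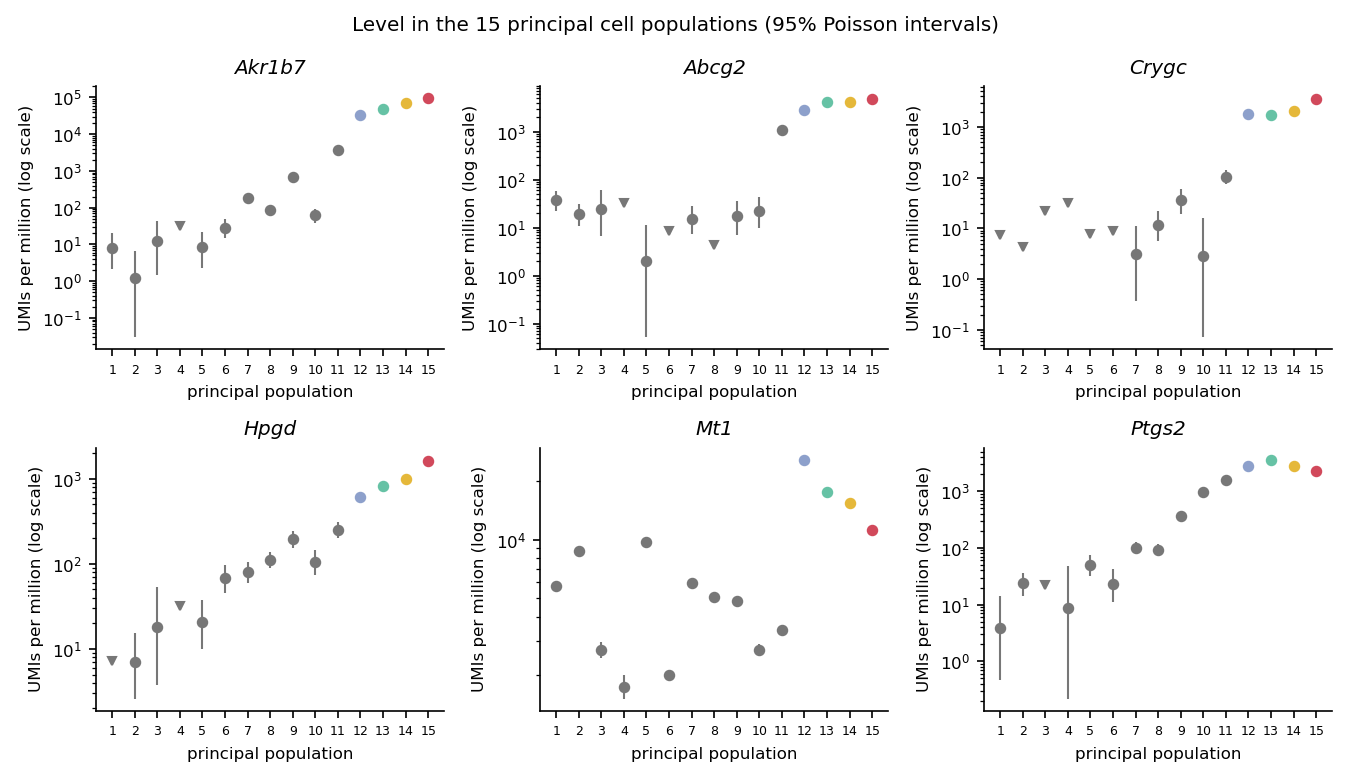
Level of 6 genes in the 15 principal populations, in UMIs per 1000000 on a log scale. Circles are values with 95% exact Poisson intervals, and triangles mark the upper limit of that interval where no UMI was counted. Akr1b7, Abcg2, Crygc and Hpgd are highest in principal 15 (96185, 4915, 3584 and 1593 UPM), while Mt1 and Ptgs2 are lowest in principal 15 among the 4 vas deferens populations.

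The share of Akr1b7 was high throughout the population and not in a few cells. Among the 159 cells with at least 1000 UMIs, Akr1b7 took a median of 9.43% of the UMIs of a cell, with quartiles of 8.76% and 11.1%, a lowest cell at 6.12% and a highest at 19.7%. The medians of principal 14, 13 and 12 were 7.39%, 5.04% and 3.49%. The lower quartile of principal 15 lay above the upper quartile of principal 14, at 8.16%. Individual cells overlapped all the same, since principal 14 reached 10.1% and principal 13 reached 11.2%.

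**Figure D2:**
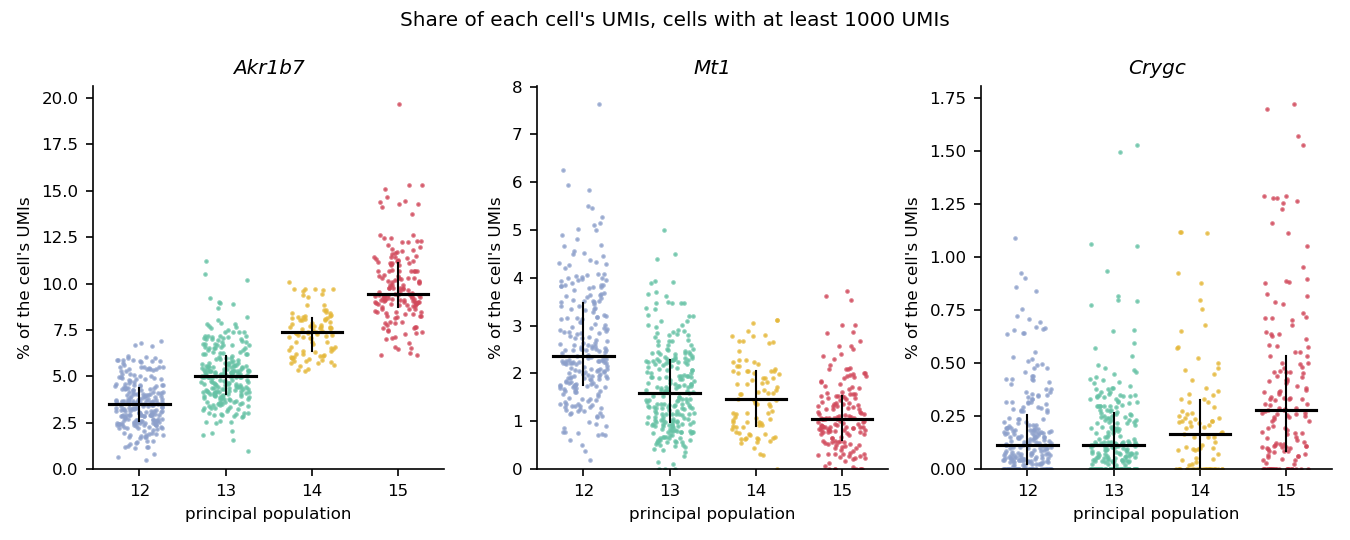
Share of UMIs of each cell taken by Akr1b7, Mt1 and Crygc in the 4 vas deferens principal populations, for cells with at least 1000 UMIs. Points are cells, horizontal bars are medians and vertical bars are quartiles. For Akr1b7 the median climbs from 3.49% in principal 12 to 9.43% in principal 15, and for Mt1 it falls from 2.37% to 1.04%.

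The 4 populations differ mostly in degree. With a threshold of at least 2-fold above the highest of the other 3 and at least 20 UMIs, 3 of 4375 genes were higher in principal 15 (0.0686%), and Akr1b7 and Abcg2 were not among them. In the other direction, 113 of 4902 genes were at least 2-fold below the lowest of the other 3 (2.31%). Against single populations the calls were more numerous. Against principal 12, 2.85% of 6585 genes were at least 2-fold higher and 7.05% lower. Against principal 13, 0.597% of 6368 were higher and 8.59% lower, and against principal 14, 1.23% of 4454 were higher and 3.17% lower. By any fold, principal 15 lay above all 3 for 25.2% of the genes tested and below all 3 for 39.9%.

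The genes called higher were Cartpt, Tradd and Hist1h2ac, and none of the 3 was widespread. Tradd and Hist1h2ac were no longer called without called doublets or with each cell reduced to 1000 UMIs. Both had few more than the 20 UMIs required, so a loss of cells or UMIs could end the call. Cartpt, which encodes a neuropeptide precursor (chromosome 13, 99898489 to 99901091, minus strand), had 602 UMIs in 13 cells. A single cell held 556 of them, 9.15% of its 6079 UMIs, while Akr1b7 took 9.77% of the same cell. Without that cell, Cartpt had 46 UMIs in principal 15, a level of 56.4 UPM. Principal 13 had 48.1 UPM once its own highest cell, with 93 UMIs, was left out in the same way. All cells outside the 4 populations held 43 Cartpt UMIs in 29 cells. Tradd, an adaptor of tumour necrosis factor receptor signaling, rested on 21 UMIs in 20 cells. Hist1h2ac, a histone gene whose family members share near-identical sequence, rested on 22 UMIs, 12 of them from 1 cell.

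Aldo-keto reductases, which reduce aldehydes and ketones, made up 9.77% of the UMIs of principal 15, against 7.21%, 5.08% and 3.40% in principal 14, 13 and 12, and almost all of this was Akr1b7. The other members of the list were at low levels, and not all of them pointed the same way. Of the 7 list genes that could be tested against all 3 populations, 5 were highest in principal 15, where 25.2% of all genes were by any fold. Akr1b7 itself is 1 of these 5. Akr1cl stood at 528 UPM in principal 15 and 334, 317 and 356 in principal 12, 13 and 14, 1.48-fold above principal 14 (1.24 to 1.78). Akr1b10 stood at 114 UPM against 48.0, 68.7 and 88.5, and its interval against principal 14 (0.889 to 1.91) included no difference. Akr7a5 went the other way against principal 14, at 231 UPM against 301.

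The gamma crystallins, structural proteins best known from the eye lens, included an abundant gene with a larger ratio to the next population than Akr1b7. Crygc (chromosome 1, 65071525 to 65073689, minus strand) reached 3584 UPM (3455 to 3715), against 2090 in principal 14, 1762 in principal 12 and 1733 in principal 13. The last pair did not differ beyond their intervals, and principal 15 stood 1.71-fold above principal 14 (1.60 to 1.84). Its neighbour Crygb (65080219 to 65082288) had 349 UPM against 238, 165 and 165 in principal 14, 12 and 13. The pair are close paralogs, and multi-mapped reads were not counted. How many reads this took from each of the pair was not tested. Cryl1, which is named as a crystallin but encodes a sugar dehydrogenase, stood at 56.0 UPM against 40.0, 25.8 and 17.3. Cryab, a small heat shock protein, was at 32.9 UPM from 27 UMIs, and its interval reached the level of principal 12.

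Each cell was reduced at random to 1000 UMIs, so that the cells compared had equal depth. Shallower cells were left out, 173 in principal 15 and 111, 162 and 49 in principal 12, 13 and 14. Depth thus still chose which cells were compared. Crygc was then detected in 74.8% of 159 cells of principal 15 and in 59.1%, 56.7% and 62.2% of principal 12, 13 and 14. Immune and endothelial cells of the same library, which should lack it, showed Crygc in 1.90% of 211 cells. Without that step, and with 173 shallower cells put back, the share in principal 15 was 59.6%. Abcg2 was detected in 93.7% of the reduced cells of principal 15, in 94.4% of principal 14, in 87.0% of principal 13 and in 77.0% of principal 12, beside 27.5% in the immune and endothelial cells. Endothelial cells had the highest Abcg2 level outside the principal cells, 624 UPM, so for Abcg2 that share is not a pure background. Unreduced, those shares were 76.2% in principal 15 and 29.8% in the immune and endothelial cells. The median depth was 933 UMIs in all cells of principal 15 and 2514.5 in the immune and endothelial cells.

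Prostaglandins are made from arachidonic acid by cyclooxygenases and terminal synthases, carried across membranes by transporters, and inactivated by a dehydrogenase and a reductase. In principal 15 the genes of inactivation Hpgd and Ptgr1 were higher than in each of the other vas deferens principal populations, Ptgs2 and Slco2a1 were lower by summed level, and Ptges lay between principal 13 and the other pair. Hpgd, the 15-hydroxyprostaglandin dehydrogenase that opens inactivation (chromosome 8, 56294585 to 56321043, plus strand), had 1593 UPM (1508 to 1682), against 992, 829 and 617 in principal 14, 13 and 12. That order was the same as for Akr1b7, and the ratio to principal 14 was 1.61 (1.44 to 1.79). Hpgd was found in 72.3% of the cells reduced to 1000 UMIs, against 47.8%, 50.8% and 38.3% in principal 14, 13 and 12 and 2.37% in the immune and endothelial cells. Ptgr1, a prostaglandin reductase that acts on the product of Hpgd, had 1308 UPM against 1043, 656 and 343, with a ratio to principal 14 of 1.25 (1.13 to 1.40). The share of reduced cells with Ptgr1, at 63.5%, was not above the 64.4% of principal 14.

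Ptgs2, the inducible cyclooxygenase (chromosome 1, 150100031 to 150108227, plus strand), was lower in principal 15, at 2235 UPM (2134 to 2340), than in principal 14 (2771), principal 12 (2786) and principal 13 (3523). The ratio was 0.807 (0.751 to 0.867) to principal 14 and 0.634 (0.601 to 0.669) to principal 13. In cells reduced to 1000 UMIs its place changed from last to second of the 4, with 2157 UPM against 2011 in principal 14, 2043 in principal 12 and 3223 in principal 13. Principal 15 therefore stood below principal 13 on both scales but not below the other pair. Slco2a1, a prostaglandin transporter, had 487 UPM against 643, 728 and 674 in principal 12, 13 and 14, a ratio of 0.716 (0.643 to 0.796) to the 3 populations summed. Ptges, a prostaglandin E synthase, had 1807 UPM against 1429, 1820 and 1589 in principal 12, 13 and 14. Its ratio was 1.26 (1.19 to 1.35) to principal 12, 0.993 (0.931 to 1.06) to principal 13 and 1.14 (1.04 to 1.24) to principal 14.

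Of 12 genes of the prostaglandin list that could be compared with the 3 populations summed, Hpgd and Ptgr1 were at least 2-fold higher and none was at least 2-fold lower, where 0.364% of all 8524 genes were higher and 9.39% lower. The median log2 ratio of the list was -0.06, beside -0.16 over all genes. Of the prostaglandin receptors, Ptger4, a receptor for prostaglandin E, was the one with enough UMIs for this comparison, at 8.52 UPM from 7 UMIs in principal 15 against 9.25, 10.7 and 10.5 in principal 12, 13 and 14, within counting error.

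Cited1, a transcriptional coregulator that responds to hormones, had 2268 UPM in principal 15 and 1928, 1606 and 1277 in principal 14, 13 and 12, again in the order of Akr1b7. Plac8, a small cysteine-rich protein, was almost level, at 4490 UPM against 4039 to 4201. Prlr, the prolactin receptor, had 323 UPM against 390 to 438. Elf5, an epithelial transcription factor, had 68.1 UPM against 48.5, 40.1 and 30.6 in principal 14, 13 and 12, and its interval against principal 14 (0.851 to 2.39) included no difference.

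Aqp2, the water channel of the kidney collecting duct, had 3186 UPM in principal 15 and 2685 to 2872 in the other 3. Fxyd4, a regulator of the sodium pump, had 3003 UPM against 3443, 2923 and 2848 in principal 12, 13 and 14. Both genes were higher than in principal 11, 7.30-fold for Aqp2 (6.21 to 8.62) and 7.15-fold for Fxyd4 (6.07 to 8.48). In the comparison with principal 11, 34.3% of 4563 genes were at least 2-fold higher in principal 15 and 10.4% lower.

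Genes that detoxify peroxides and electrophiles differed in direction. Of 26 antioxidant and glutathione genes tested for a higher level, 17 lay above all 3 other populations, beside 25.2% of all genes, and 4 of 30 tested for a lower level lay below all 3, beside 39.9%. Against the 3 summed, 20 of 33 had a ratio above 1, beside 38.2% of all genes. None was at least 2-fold higher, beside 0.364% of all genes, and 2 were at least 2-fold lower, beside 9.39%. Gstm1, a glutathione transferase, had 1745 UPM against 1466, 1161 and 929 in principal 14, 13 and 12. Gsta2, of another class of the same enzymes, had 307 UPM against 240, 197 and 143. Prdx1, a peroxiredoxin, had 2297 UPM against 1903, 1838 and 1400. The 2 lower genes were Gpx3, a secreted glutathione peroxidase with 86.4 UPM against 84.3, 253 and 189 in principal 14, 13 and 12, and Gclc, the catalytic subunit of the enzyme that starts glutathione synthesis, with 26.8 UPM against 56.9, 68.7 and 49.1.

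Metallothioneins, small cysteine-rich proteins that bind zinc and copper, ran in the opposite order to Akr1b7. Mt1 had 11211 UPM in principal 15 (10983 to 11442), 15494 in principal 14, 17628 in principal 13 and 25677 in principal 12. Mt2 had 5389 UPM against 8071, 9256 and 13796. The ratio of principal 15 to principal 14 was 0.724 (0.702 to 0.746) for Mt1 and 0.668 (0.639 to 0.697) for Mt2. Among cells with at least 1000 UMIs, the median share of Mt1 was 1.04% in principal 15 and 1.46%, 1.60% and 2.37% in principal 14, 13 and 12. The ferritin light chain gene Ftl1 had 2161 UPM against 2429, 2271 and 3466, while the heavy chain gene Fth1, at 2109 UPM, lay above the 2039 of principal 13. Mt1 was 3.29-fold (3.10 to 3.50) higher in principal 15 than in principal 11.

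The promoters of the metallothionein genes are shown because both genes moved together. Metal response elements contain the core TGCACNC or TGCGCNC, and one of the pair, on either strand, occurs in 21.4% of 32851 mouse RefSeq promoters within the 250 bases before the start. Counted by gene, as for the list members, 23.8% of 27025 genes hold it in at least 1 promoter. Of the 7 members of the metal list with a promoter in that table, 3 held it: Mt1, Mt2 and Tfrc. Mt1 held 1 match and Mt2 held 3. The sequences run from 250 bases before the RefSeq start to the base before it (GRCm38.p6, Mt1 at chr8:94178839-94179088 and Mt2 at chr8:94172368-94172617, plus strand), with the core in capitals, and a match is no evidence of binding.
Mt1: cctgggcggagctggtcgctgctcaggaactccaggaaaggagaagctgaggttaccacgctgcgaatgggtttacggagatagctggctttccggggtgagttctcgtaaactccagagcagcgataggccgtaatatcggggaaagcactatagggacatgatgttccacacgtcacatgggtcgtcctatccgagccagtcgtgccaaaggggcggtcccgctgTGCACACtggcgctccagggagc
Mt2: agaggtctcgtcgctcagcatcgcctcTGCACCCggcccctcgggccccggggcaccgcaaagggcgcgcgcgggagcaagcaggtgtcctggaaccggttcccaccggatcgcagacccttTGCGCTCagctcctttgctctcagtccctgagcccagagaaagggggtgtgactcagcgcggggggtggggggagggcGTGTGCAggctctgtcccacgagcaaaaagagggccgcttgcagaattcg

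Cholesterol and fatty acid synthesis was the group with the clearest lower levels. Its enzymes turn acetyl coenzyme A into sterols and long-chain lipids, and most are switched on together by the SREBP transcription factors when sterols run low. The 30 genes made up 0.321% of the UMIs of principal 15, against 0.505%, 0.625% and 0.519% in principal 12, 13 and 14. Of 26 genes tested for a lower level, 22 lay below all 3 other populations (39.9% of all genes did so), and 5 were at least 2-fold below all 3 (2.31% of all genes), among them Lss, Insig1 and Fasn. None of 25 tested for a higher level lay above all 3.

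Insig1, which holds the SREBP proteins in the endoplasmic reticulum, had 127 UPM (103 to 153) in principal 15, against 263, 324 and 321 in principal 14, 13 and 12, and was at 0.402 (0.326 to 0.492) of its level in the 3 populations summed. Lss, which closes the sterol rings, had 24.3 UPM from 20 UMIs against 92.7, 99.5 and 96.0, and was at 0.251 of that sum (0.152 to 0.394). Fasn, the fatty acid synthase, was at 0.395 (0.266 to 0.568) and Acly, which supplies cytosolic acetyl coenzyme A, at 0.422 (0.319 to 0.550).

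Not all steps were equally low. Fdps, which makes farnesyl diphosphate, had 650 UPM against 720 in principal 12, 923 in principal 14 and 1132 in principal 13. Fads2, a fatty acid desaturase, was the single gene of the list with a ratio above 1 to the 3 populations summed, 1.13 (0.911 to 1.39). Over the 30 genes compared with the 3 populations summed, 9 were at least 2-fold lower and none higher, with a median log2 ratio of -0.72 beside -0.16 over all genes. Against principal 12, 13 and 14 one by one, 8 of 30, 11 of 29 and 7 of 25 genes of the list were at least 2-fold lower, beside 7.05%, 8.59% and 3.17% of all genes, and none was higher, beside 2.85%, 0.597% and 1.23%.

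**Figure D3:**
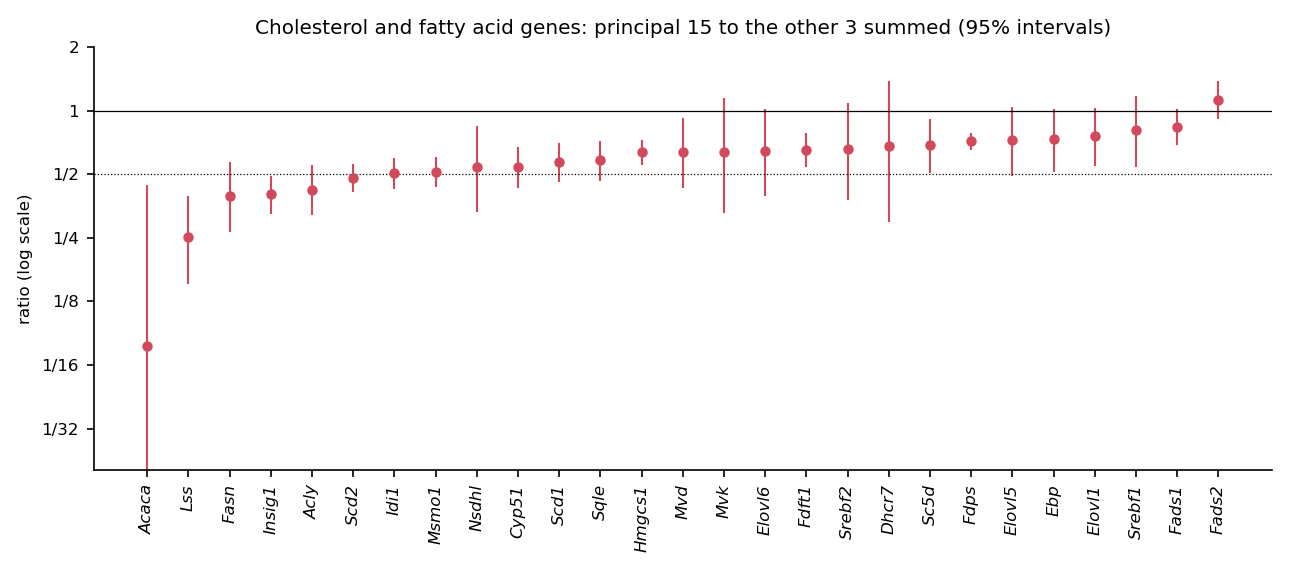
Ratio of principal 15 to principal 12, 13 and 14 summed for 27 genes of cholesterol and fatty acid synthesis with UMIs in principal 15, on a log scale, with 95% exact conditional intervals. All genes plotted but Fads2, at 1.13, lie below 1, and the dotted line marks a ratio of 1/2.

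The promoter of Hmgcs1, an early enzyme of the sterol pathway, is shown because it was the single one of the group to hold the sterol response motif searched. The letters TCACNCCAC, on either strand, occur in 1.05% of the 32851 promoters over the same 250 bases. Counted by gene, 1.22% of 27025 genes hold them. Of the 21 list members with a promoter in the table, Hmgcs1 held it, 137 bases before the start. Hmgcs1 had 298 UPM in principal 15 against 461, 527 and 424 in principal 14, 13 and 12. The sequence is chr13:119690101-119690350, plus strand (GRCm38.p6), with the motif in capitals.
Hmgcs1: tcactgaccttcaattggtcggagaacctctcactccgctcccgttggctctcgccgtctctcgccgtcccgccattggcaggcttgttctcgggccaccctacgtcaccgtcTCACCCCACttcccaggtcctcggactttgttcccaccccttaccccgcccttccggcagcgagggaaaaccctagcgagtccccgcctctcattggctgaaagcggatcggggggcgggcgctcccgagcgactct

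Genes of oxidative phosphorylation, which build the respiratory chain and the ATP synthase, made up 5.30% of the UMIs of principal 15 and 5.03%, 4.73% and 5.03% in principal 12, 13 and 14. The gap was small but spread over many genes: 50 of 86 tested were highest in principal 15, where 25.2% of all genes were, and none reached the 2-fold threshold. When each cell was given equal weight the order changed, and principal 15 lay below principal 12 and 14. Mitochondrial ribosome genes pointed the same way, with 33 of 67 highest in principal 15.

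Cytosolic ribosome genes made up 12.8% of the UMIs of principal 15, against 18.7%, 13.2% and 13.9% in principal 12, 13 and 14. Once the 10 genes most abundant in principal 15, with Akr1b7 first, were taken out of the totals, principal 15 lay above principal 13 and below the other pair. The place of principal 15 against principal 13 thus depended on the total used, while it lay below principal 14 and principal 12 either way.

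Immediate early genes, which respond within minutes to stimuli and to tissue dissociation, followed Akr1b7 in part. Fos, a subunit of the AP-1 transcription factor, had 661 UPM in principal 15 against 518, 303 and 179 in principal 14, 13 and 12. Ier2 had 520 UPM against 369, 283 and 150. Egr1, a zinc finger factor, had 340 UPM against 343 in principal 14, and Jund had 629 UPM, below all 3. Klf2 had 238 UPM (206 to 274). It was found in 13.8% of cells reduced to 1000 UMIs, against 3.83%, 9.24% and 11.1% in principal 12, 13 and 14. The immune and endothelial cells held it more often, in 18.5%, so they give no background for Klf2. What part free RNA had in its level was not tested. The whole list took 0.895% of the UMIs of principal 15 and 0.896% of those of principal 14, so as a group it did not set the pair apart. What part dissociation had in these levels was not tested.

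**Figure D4:**
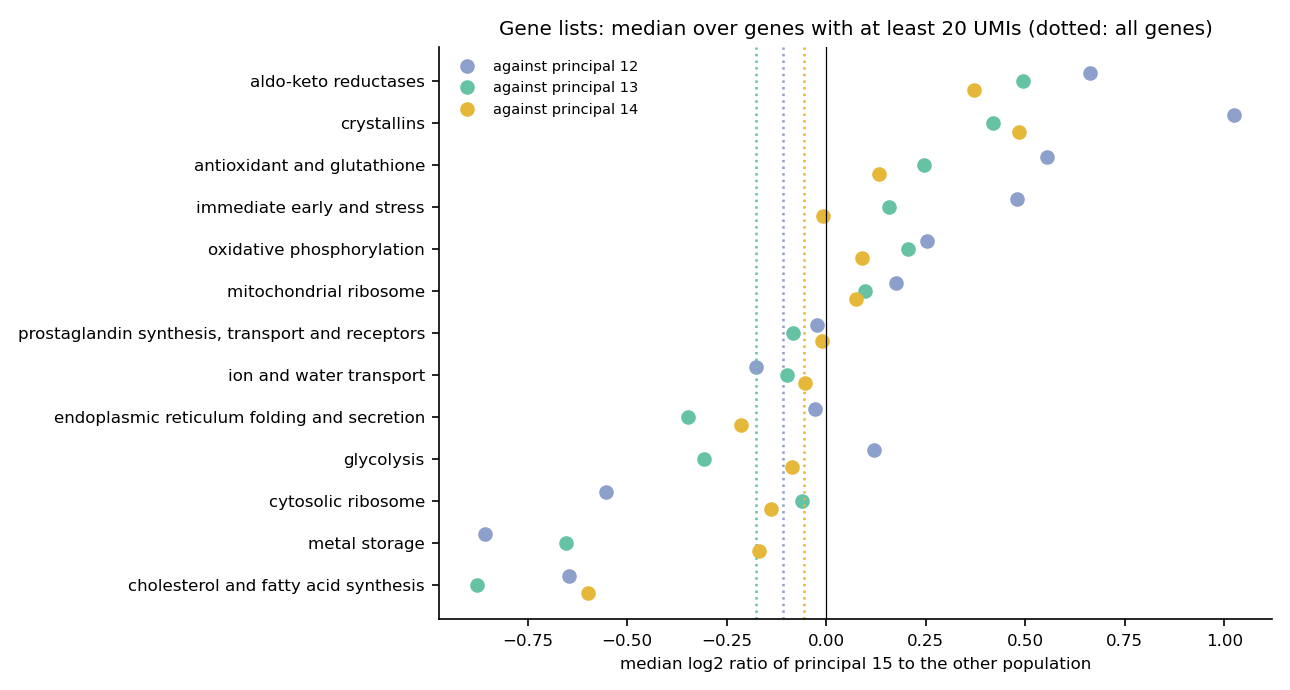
Median log2 ratio of principal 15 to principal 12, 13 and 14 for 13 gene lists, over genes with at least 20 UMIs in either population. Dotted lines give the median over all genes for each comparison, at -0.11, -0.18 and -0.05. Cholesterol and fatty acid synthesis lies furthest to the left against principal 13 and 14, and the aldo-keto reductases lie to the right against all 3.

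The 113 genes called lower were mostly rare ones. In principal 15, 99 of them had fewer than 20 UMIs and the median was 8 UMIs, so that counting error alone leaves wide intervals. With at least 50 UMIs asked for in the lowest of the other populations, 29 genes were left. S100a6, a calcium-binding protein, headed these with 10 UMIs in principal 15, 12.2 UPM against 98.8, 65.1 and 105 in principal 12, 13 and 14. Apoe, the apolipoprotein that carries cholesterol between cells, followed with 26.8 UPM against 91.3, 125 and 164. Both are far more abundant in other cells, where the highest levels were 6119 UPM for S100a6, in fibroblasts, and 210159 UPM for Apoe. What part carry-over from other cells had in the levels of S100a6 and Apoe was not tested. Osbpl8, a lipid transfer protein, had 12.2 UPM against 39.9 to 42.9. Slc34a2, a phosphate cotransporter, had 15.8 UPM against 42.2 to 59.0. The transcription factor Srf, which drives immediate early and actin genes, had 19.5 UPM against 47.2 to 52.6. Ceacam1, a cell adhesion molecule, had 0 UMIs in principal 15. Its level in the lowest of the others was 4.91 times the value set for no UMI, the level of 3 UMIs.

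Of 13 junction and keratin genes tested for a higher level, none lay above all 3 other populations, beside 25.2% of all genes. Of 12 tested for a lower level, 6 lay below all 3, beside 39.9%. Cdh1, which encodes E-cadherin, had 66.9 UPM against 127, 153 and 120 in principal 12, 13 and 14, and its ratio to the 3 summed was 0.492 (0.365 to 0.651). Cldn4, a tight junction claudin, was at 0.563 of their sum (0.485 to 0.651) but at 0.901 of principal 14 (0.722 to 1.13). Krt8, a keratin of simple epithelia, had 1259 UPM against 1260, 1420 and 1477, and the claudin gene Cldn3 had 669 UPM, between principal 14 (537) and principal 13 (736).

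Crisp1, a cysteine-rich secretory protein of the epididymis that coats sperm, and Spink8, of a family of protease inhibitors, were also abundant. Crisp1 stood at 34390 UPM in principal 15, between principal 14 (26831) and principal 13 (38810), and at 195180 UPM in principal 11. Both genes varied widely between cells of principal 15. Among 697 genes with a mean of at least 0.2 UMIs in cells reduced to 1000 UMIs, the variance divided by the mean had a median of 1.22, and 33 genes reached 2. It was 12.3 for Crisp1, 7.81 for Spink8, 5.75 for Mt1, 4.67 for Crygc, 4.52 for Akr1b7 and 4.29 for Ptgs2. This measure rises with the mean where cells differ in level, so it does not rank genes of unlike level. Akr1b7 had a mean of 99.9 UMIs with a standard deviation of 21.2, a small spread for its level. Ptgs2 had a mean of 2.16 with a standard deviation of 3.04, and Crisp1 35.1 with 20.8. Cartpt, at 80.1, came first because of the cell described above.

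The population drew its cells from 3 of the clusters of the authors' first round, before broad cell types were clustered again. First-round cluster 17 gave 251 cells (75.6%), cluster 2 gave 69 (20.8%) and cluster 21 gave 12 (3.61%). By contrast, 343 of the 346 cells of principal 12 came from cluster 2 and none from cluster 17, so part of the gap to principal 12 cannot be told apart from that of the first-round clusters. Principal 13 had 52 cells and principal 14 had 27 cells in cluster 17, which allows a comparison within it.

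Within cluster 17, Akr1b7 was at 97677 UPM in principal 15, 72744 in principal 14 and 67118 in principal 13. Within cluster 2 it was at 90884 UPM against 70071 in principal 14, 47632 in principal 13 and 32970 in principal 12. The lower cholesterol share held within both clusters, at 0.330% against 0.714% and 0.713% in cluster 17 and 0.258% against 0.459% to 0.625% in cluster 2. In cluster 21 the order was turned around, with 0.503% in the 12 cells of principal 15 and 0.275% and 0.318% in principal 13 and 14. Abcg2 in cluster 17 was higher in principal 13 (5910 UPM) than in principal 15 (4923 UPM), and the ribosome share was highest in principal 15 there, at 12.6% against 9.70% and 12.0%.

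**Figure D5:**
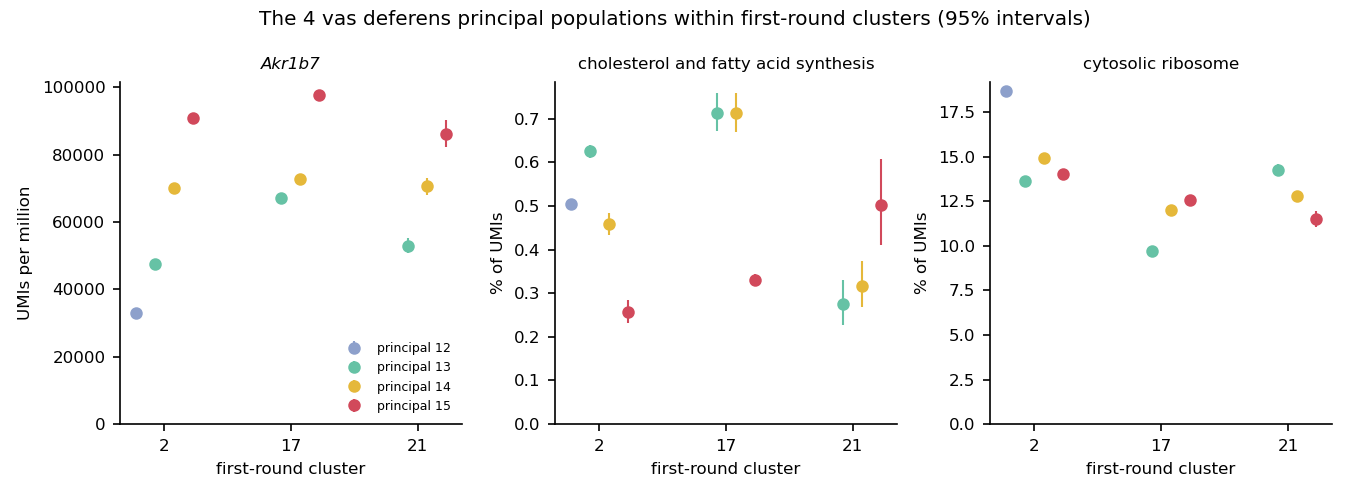
Akr1b7 level in UMIs per 1000000 and the shares of UMIs from cholesterol and ribosome genes in the 4 vas deferens principal populations, split by first-round cluster, with 95% intervals for counting error. Akr1b7 is highest in principal 15 in all 3 clusters, while the cholesterol share is lowest in principal 15 in clusters 2 and 17 and highest in cluster 21, where the population has 12 cells.

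Of 4375 genes set against all other populations, 1 reached 2-fold above the highest of the other 33 (0.0229%), and that was Cartpt. A population without a UMI was set to 3 UMIs, which came to 128 UPM in the small cell type labelled BasalMacrophages. Where that cell type held no UMI, a gene less than 2-fold above 128 UPM in principal 15 could not be called. The ratio of Cartpt, 5.71, was itself to this set value. The count therefore does not show whether rarer genes were higher in principal 15. Among the genes with the next largest ratios were Crygc at 1.71, Hpgd at 1.61, Akr1cl at 1.48 and Crygb at 1.47, and Akr1b7 came to 1.36. For each of these genes other than Cartpt, the next highest population in the table was another of the vas deferens principal populations.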

How the data were processed

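Per the labels and methods, the authors made 10x droplet libraries from pooled pieces, called bases with bcl2fastq, aligned reads to mm10 with HISAT2 2.0.4, counted reads at gene ends without multi-mapped reads, merged UMIs with sequencing errors, kept cells within limits on UMIs, subtracted free RNA with SoupX, and clustered in a first and a second round. The deposited table holds these whole-number UMI counts of 16892 genes in 8880 cells, with each cell's library, first-round cluster, cell type and scran size factor, a score not used here for levels. Libraries held 4408989 to 10744928 UMIs. No depth beyond counts was used.

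UMIs were summed per population with Python 3.11.15, numpy 2.4.6, scipy 1.17.1 and pandas 2.3.3, and divided by the total. Intervals are 95%: exact Poisson for levels, Clopper-Pearson for shares, and exact conditional binomial for ratios. A gene counted as higher or lower at 2-fold with at least 20 UMIs in the higher group. A population at 0 was set to 3 UMIs. Cells were reduced to 1000 UMIs with a fixed seed. With 1 library per region there was no test. Doublets were called by simulation with scikit-learn 1.9.0 in each library and kept. They were 98 of 3506 cells (2.8%) in the vas deferens library. Principal 15 had 4 of its 332 cells called, and principal 12, 13 and 14 had 13 of 346, 13 of 400 and 7 of 139. The code was tested on simulated data. Gene positions are from the GRCm38 annotation and promoters from RefSeq.

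Members and gene lists were chosen with earlier results of these data known. Named genes were the 15 highest in principal 15, the 15 with the largest ratios in each direction against the other 3, the 10 with the largest ratios to all populations, and each list's highest and most extreme members. Osbpl8, Slc34a2, Srf and other list members named in the text were chosen after their values were seen. Alternatives changed the total, the filters, the cells and the populations compared. Leaving out each gene's highest cell, raising counts of 1 and 2 to 3, centring on the median ratio, first-round cluster 17 alone and the list without S6 kinases were added after seeing the data. Results for some genes of the cholesterol list are not reported here.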

Additional observations from a re-analysis of the deposited data

How the results depend on the processing

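No paired analysis was possible because each region is 1 library and no test was run. With no replicate library, the limit is counting error: a gene at 20 UMIs or fewer in principal 15 has a wide interval, and its shallow cells leave 173 of 332 below 1000 UMIs.

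The number of genes higher in principal 15 than in each other population, 3 in the report, was 1 at 4-fold, 42 at 1.5-fold, 1 with at least 50 UMIs, 5 without the 10 highest genes in the total, 28 when each cell had equal weight, 7, 13 and 20 without principal 12, 13 and 14, 1 without each gene's highest cell, 6 after centring on the median ratio and 32 in first-round cluster 17 alone, against principal 13 and 14 only. The number lower, 113 in the report, was 10 at 4-fold, 384 at 1.5-fold, 29 with at least 50 UMIs, 254 with equal weight, 12 after reduction to 1000 UMIs, 262 without principal 14 and 14 in cluster 17. Reduction and cluster 17 left fewer UMIs per population under the same filter of 20 UMIs, so rare genes could drop out untested. Of the 28 and 254 genes with equal weight, 1 and 45 were shared with the report. Of the 12 lower genes after reduction to 1000 UMIs, 4 were shared. In cluster 17, 1 of 32 and 2 of 14 were shared. Without each gene's highest cell Cartpt was no longer called and Pstk was.

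The level of Akr1b7 was 101298 UPM with equal weight, 95277 in cells with at least 1000 UMIs, 97037 without called doublets and 126163 without the 10 highest genes in the total. Abcg2 was 4727 UPM with equal weight and 6447 without the 10 highest. The oxidative phosphorylation share was 4.97% with equal weight, 5.38% in cells with at least 1000 UMIs, 6.95% without the 10 highest and 5.24% without assembly factors. The ribosome share was 12.2%, 12.9% and 16.8% for the first 3 of these. In cluster 17, 15 cholesterol genes were at least 2-fold lower than the other populations summed, in place of 9. That sum left out the vas deferens principal population with no cells in cluster 17, so it was not the sum behind the 9. The number of list genes tested in cluster 17 and the share of all genes lower there are not given here. The rise from 9 to 15 is therefore no measure of a stronger result. The share of cells with Abcg2, 93.7% at 1000 UMIs, was 72.3% at 500 UMIs and 76.2% unreduced.

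Signs turned for Tradd (0.866 of the highest other population with equal weight), for the ribosome list (median log2 ratio 0.18 in cluster 17, in place of -0.33) and for the immediate early list (-0.0071 in cluster 17, in place of 0.30). The cause was not tested. Of the values for single genes and lists, 344 of 377 stayed within counting error or, for lists, within a set limit on the log2 ratio. A further 30 moved beyond that and 3 changed sign. Of the values for the main results, 28 of 62 stayed within counting error or, for counts, within 1.5 times. The larger part, 34 of 62, moved further.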

Other observations

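Psmb4, a subunit of the proteasome core, had 299 UPM in principal 15 (95% exact Poisson interval 263 to 339) and 171, 168 and 150 in principal 14, 13 and 12. Its ratio to the 3 summed was 1.87 (1.61 to 2.18). Bckdha, which takes part in the breakdown of branched-chain amino acids, had 66.9 UPM against 37.9, 33.6 and 30.6. Vamp7, a vesicle fusion protein, had 81.5 UPM against 44.2, 47.9 and 38.7. Dbi, which binds acyl coenzyme A esters, had 5510 UPM against 4437, 4311 and 3511, in the order of Akr1b7. Hsdl2, a peroxisomal protein of the hydroxysteroid dehydrogenase family, had 180 UPM against 128, 102 and 108.

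Vesicle and annexin genes were mixed. Of 16 genes of the tetraspanin and vesicle list tested for a higher level, 5 lay above all 3 other populations, where 25.2% of all genes did. Anxa5, an annexin that binds phosphatidylserine, had 173 UPM against 133, 117 and 101 in principal 14, 13 and 12, while Cd63, a tetraspanin of late endosomes, had 34.1 UPM against 90.6, 68.0 and 41.0. Endoplasmic reticulum folding genes lay below all 3 for 11 of 25 tested, beside 39.9% of all genes.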
